A study of Mus musculus with 20 samples.

Results

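Open chromatin was compared between Setd2 knockout (KO) and wild-type (WT) C2C12 myoblasts at D0, before differentiation starts. C2C12 is an established mouse myoblast line that forms multinucleated muscle cells once it is made to differentiate. The comparison used 4 of the 20 libraries of the series, namely WT D0 replicate 1, WT D0 replicate 2, KO line 1 and KO line 2. All 4 carry the C2C12 background, and their labels name no methionine restriction, which the study applied in some later libraries. The remaining libraries are WT and KO cells of the same lines from later days, D1 and D5, grown without (CTL) or with (MR) methionine restriction. The labels do not say how Setd2 was disrupted, whether a KO line is 1 clone, or whether the WT replicates are separate cultures. With 2 libraries a group, a property of the KO lines other than the Setd2 genotype cannot be told apart from the genotype. Peaks of the 4 lists that overlapped by 1 bp or more were joined, which gave 73317 regions. A region with a peak in both KO lists and in neither WT list was called gained, and 1835 regions, or 2.5% of all merged regions, met that rule. A region with a peak in both WT lists and in neither KO list was called lost, and 3909 regions, or 5.33%, met it. These calls rest on the presence of peaks and carry no p-value.

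ATAC-seq uses a transposase that cuts DNA where nucleosomes are absent or loose, so its peaks mark active promoters, enhancers and other open elements. Setd2 is the histone methyltransferase that places trimethylation on lysine 36 of histone H3 (H3K36me3), a mark laid down behind elongating RNA polymerase II across the bodies of transcribed genes. H3K36me3 recruits readers that restrain spurious transcription starts within genes, guide DNA methylation and limit the spread of repressive marks. In myoblasts, MyoD and related factors bind E-box sequences and open muscle enhancers, some of them well before the linked contractile genes are switched on.

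The 4 lists differed in size. WT replicate 1 had 43058 peaks, WT replicate 2 had 49281, KO line 1 had 63530 and KO line 2 had 30629. The background coverage recovered from each list, a proxy for depth, was 4.71, 5.38 and 5.20 fragments per position in WT replicate 1, WT replicate 2 and KO line 1, and 2.52 in KO line 2. KO line 2 was therefore the shallowest library, and KO line 1 had the longest list. Gene ends, taken with 1 kb on either side, held 25.3% and 23.7% of WT peaks and 21.2% and 25.5% of KO peaks. Gene bodies held 42.4% and 42.8% of WT peaks and 42.2% and 41.3% of KO peaks, a mean difference of -0.80 percentage points. The gene-body shares of the groups did not overlap, and the exact two-sided permutation p of 0.33 is the smallest that 2 against 2 libraries allow. Among the 20000 highest peaks of each list by -log10 p they did overlap, at 39.5% and 39.05% in WT and 35.5% and 40.3% in KO lines 1 and 2. List size, gene-end share and median peak width overlapped between the groups, with an exact permutation p of 1 for each. Of 12 myoblast markers, 8, 9, 8 and 8 had a gene-end peak in WT replicate 1, WT replicate 2, KO line 1 and KO line 2. None of 8 endothelial markers had a gene-end peak in any of the 4 lists, and 3, 3, 3 and 2 of 10 fibroblast markers and 5, 6, 5 and 4 of 8 smooth muscle markers had such a peak, in the same order of libraries. Setd2 itself had a gene-end peak in all 4 lists (chr9:110531909-110533230), which says nothing about the genotype because a peak at the gene end does not report the edited sequence.

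Promoters are shown here because they are the members for which sequence is at hand, and because short motifs differed in frequency between the sets. For each annotated start the 250 bases before it were read from RefSeq (GRCm38.p6), 5′ to 3′ on the gene's strand. Capitals mark E-boxes, the 6-letter motif CANNTG. A gene can have several starts, and the 32585 windows belong to 26763 genes, more than the 21631 protein-coding ones. A window can therefore reach into the gene, as at Klhl40, whose gene record begins at position 121777499. The gained set is represented by St8sia4 (chr1:95667595-95667844, minus strand), which encodes a polysialyltransferase, by Syt1 (chr10:109010976-109011225, minus strand), the calcium sensor of synaptic vesicles, and by Ctla2b (chr13:60897448-60897697, minus strand). Shown from the lost set are Klhl40 (chr9:121777357-121777606, plus strand), a Kelch protein of skeletal muscle, and Nppb (chr4:147985650-147985899, plus strand), which encodes brain natriuretic peptide. Also shown are Ttn (chr2:76982548-76982797, minus strand), the giant spring protein of the sarcomere, and Cd200 (chr16:45409054-45409303, minus strand), a membrane glycoprotein. These lost windows were not taken in order of rank and do not stand for the lost set as a whole. By the lower of their WT percentiles of peak strength, Gm12784 (88.2) and Gm14410 (84.2) stood above Klhl40 (78.3). Kcnab2 (68.7) and Tet1 (63.2) stood above Ttn (56.0).
St8sia4: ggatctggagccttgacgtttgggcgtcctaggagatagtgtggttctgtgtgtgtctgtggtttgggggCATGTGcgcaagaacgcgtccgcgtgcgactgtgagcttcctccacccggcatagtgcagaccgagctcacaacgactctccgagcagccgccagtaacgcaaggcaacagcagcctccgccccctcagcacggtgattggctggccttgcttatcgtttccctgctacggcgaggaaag
Syt1: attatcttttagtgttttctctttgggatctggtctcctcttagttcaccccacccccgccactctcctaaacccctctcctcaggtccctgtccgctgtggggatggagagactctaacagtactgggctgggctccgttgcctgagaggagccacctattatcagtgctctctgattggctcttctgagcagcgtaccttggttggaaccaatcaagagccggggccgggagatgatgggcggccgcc
Ctla2b: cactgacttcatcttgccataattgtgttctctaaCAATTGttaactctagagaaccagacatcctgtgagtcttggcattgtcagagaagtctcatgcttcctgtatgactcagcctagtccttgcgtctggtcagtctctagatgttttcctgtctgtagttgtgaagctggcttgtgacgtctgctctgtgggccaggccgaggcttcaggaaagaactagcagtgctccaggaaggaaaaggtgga
Klhl40: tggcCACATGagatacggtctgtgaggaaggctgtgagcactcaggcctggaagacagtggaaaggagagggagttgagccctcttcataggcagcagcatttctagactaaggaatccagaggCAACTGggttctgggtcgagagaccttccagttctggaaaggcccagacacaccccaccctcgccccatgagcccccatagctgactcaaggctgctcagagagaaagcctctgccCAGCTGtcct
Nppb: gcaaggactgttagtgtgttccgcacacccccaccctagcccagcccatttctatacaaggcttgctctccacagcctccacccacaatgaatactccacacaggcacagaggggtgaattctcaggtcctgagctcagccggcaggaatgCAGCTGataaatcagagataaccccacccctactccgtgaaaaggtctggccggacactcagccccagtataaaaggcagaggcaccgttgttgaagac
Ttn: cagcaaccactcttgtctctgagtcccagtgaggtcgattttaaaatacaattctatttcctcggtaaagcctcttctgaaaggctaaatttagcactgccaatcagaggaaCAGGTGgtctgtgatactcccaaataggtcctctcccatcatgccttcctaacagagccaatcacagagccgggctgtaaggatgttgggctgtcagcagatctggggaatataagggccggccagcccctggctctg
Cd200: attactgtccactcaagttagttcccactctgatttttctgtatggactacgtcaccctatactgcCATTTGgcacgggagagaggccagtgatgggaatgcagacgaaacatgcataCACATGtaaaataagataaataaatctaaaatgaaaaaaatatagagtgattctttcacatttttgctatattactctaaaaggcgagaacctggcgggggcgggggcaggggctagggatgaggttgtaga

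Each of these windows touched a gained or lost region. Klhl40 holds 3 E-boxes, 1 of them CAGCTG, the form that MyoD favours. Nppb holds a single E-box, which is also CAGCTG, and Ttn holds 1 of another form. The Syt1 window holds none, and the Ctla2b and Klhl40 windows have 1 match each to TGANTCA, the AP-1 motif.

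Over all 32585 such windows, 13.1% held CAGCTG. Among the 133 windows touched by a lost region, 43, or 32.3%, held it, against 12.1% of the 7424 windows touched by a region called in all 4 lists and 12 of 65, or 18.5%, of those touched by a gained region. GGAATG, the motif of TEAD factors, was in 12.6% of all windows, in 28 (21.1%) of the lost ones and in 4 (6.15%) of the gained ones. TGANTCA showed the other order, with 6.78% of all windows, 12 (18.5%) of the gained ones and 8 (6.02%) of the lost ones. Any E-box was in 66.3% of all windows, 73.7% of lost and 63.1% of gained ones. Windows touched by a lost or a gained region held a median of 7 and 6 CpG pairs, against 18 in windows touched by a region called in all 4 lists. Both strands were searched, and CAGCTG is contained in CANNTG while the other motifs differ in letters. These shares describe letters and not bound factors, and windows of neighbouring genes or of the same gene can overlap.

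Most differences between the lists were not shared by both lines. Of the 73317 regions, 24601 had a peak in all 4 lists, 19964 had a peak in KO line 1 only and 693 in KO line 2 only. Both WT lists shared 38952 regions, of which 11.9% lacked a peak in KO line 1, 34.9% lacked 1 in the shallower KO line 2, and 10.0% lacked 1 in both and were therefore lost. Both KO lists shared 28017 regions, and 6.55% of these were gained. When each list was restricted to its 20000 highest peaks by -log10 p, 29946 merged regions remained, of which 1395 (4.66%) were gained and 1964 (6.56%) were lost. These restricted sets are largely differences of rank: 77.1% and 82.7% of the gained ones had a weaker peak in the full lists of WT replicates 1 and 2, and 76.8% and 43.2% of the lost ones in the full lists of KO lines 1 and 2. In all, 199 gained and 356 lost regions met both definitions, that is, strong in 1 genotype and without any peak in the other.

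Peaks of the gained and lost sets were mostly modest. The fold enrichment given here is the authors' own value per peak over the background of its library, and is used within a list only. Gained regions had a median fold of 4.22 in KO line 1 and 3.98 in KO line 2, and stood at the median percentile of 46.6 and 27.1 of their lists by -log10 p. Lost regions had a median fold of 3.49 in WT replicate 1 and 3.56 in WT replicate 2, at percentiles 27.1 and 32.7. Regions called in all 4 lists had medians between percentile 57.4 in KO line 2 and 77.9 in KO line 1. In bulk chromatin, fewer cells with an open site and less opening per cell cannot be told apart.

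Gained and lost regions lay in different places. Within 1 kb of a gene end lay 6.92% of gained regions (127 of 1835, 95% Wilson interval 5.85 to 8.17) and 7.62% of lost regions (298 of 3909, 6.83 to 8.50), against 19.4% of all merged regions and 28.8% of those called in all 4 lists. The gained share was 16.2% with the 20000 highest peaks per list (28.2% of all regions there) and 11.7% without KO line 2. The lost share was 21.8% without KO line 1, where KO line 2 alone decides. Lost regions were in gene bodies in 53.7% of cases, against 43.6% of all merged regions and 45.0% of gained ones, but without KO line 1 the lost share was 44.5%. Far from genes lay a larger share of the gained regions, with 19.8% (363 of 1835, 18.02 to 21.67) over 100 kb from any protein-coding gene, against 6.73% of lost and 8.06% of all merged regions. Their median distance to a gene, where they lay outside genes, was 70.8 kb, against 23.8 kb for lost and 27.6 kb for all merged regions. Within the 20000 highest peaks the same share was 12.3% of gained, 6.77% of lost and 6.47% of all regions, and for all regions of KO line 1 without a WT peak it was 12.7%. The intervals cover counting error only. Median width was 147 bp for gained, 127 bp for lost and 320 bp for regions called in all 4 lists. The part of peak strength in these shares was not tested.

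**Figure D1:**
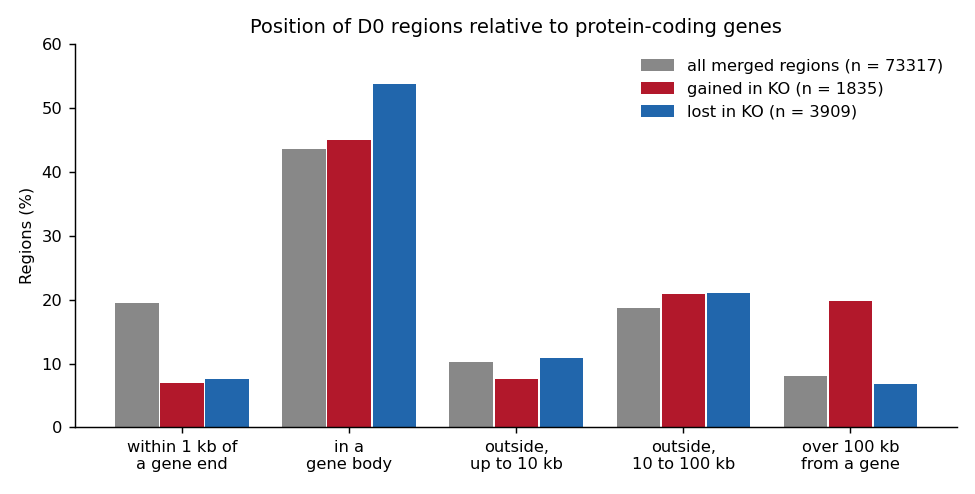
Percent of all merged D0 regions, gained regions and lost regions in 5 classes of position relative to protein-coding genes. Gained regions had 19.8% over 100 kb from a gene against 8.06% of all regions, and lost regions had 53.7% in gene bodies against 43.6%.

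Of the 12 gained regions that ranked highest in both KO lists, 7 lay outside genes and 5 inside a gene. The leading region, chr2:134342563-134342879, was 154 kb from Hao1, the liver glycolate oxidase, with a fold of 10.2 in KO line 1 and 9.82 in KO line 2. A region within Magi2, which encodes a synaptic and junctional scaffold (chr5:19970185-19970320), had folds of 10.3 and 10.7. A region 97.9 kb from Tacr3, the neurokinin B receptor (chr3:134730961-134731091), had folds of 10.1 and 9.87. Neither WT list held a peak at these positions, and no WT library of D1 or D5 did, while all 4 KO libraries of D1 and both of KO line 2 at D5 had a peak.

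Of the same 12 regions, 7 had that complete pattern in later libraries. The other 4 of these were within Pde3a, a phosphodiesterase that degrades cyclic AMP, 152 kb from Galnt13, 1645 kb from Cntnap5a and 604 kb from Ctnnd2, the neuronal delta-catenin. The remaining 5, near Pcdh10 and Samd12 and within Gcfc2, Trdn and Cngb3, were called in all 4 KO lists of D1 but also in 2 to 4 WT lists of that day. Trdn encodes triadin, which anchors the calcium release complex in muscle, and its gained region (chr10:33179721-33179889) was present in 4 of 4 WT libraries at D1. It thus had a peak in both KO lists at D0, and in WT cells at D1 but not at D0. A missing peak at D0 does not show that the site was closed.

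At gene ends, the strongest gained region lay over the start of St8sia4 (chr1:95667581-95667763), with folds of 6.82 and 8.20. Syt1 had a pair of gained regions at its start. The region over the start (chr10:109010892-109011151) had folds of 9.85 in KO line 1 and 6.23 in KO line 2, and the region 0.669 kb upstream (chr10:109011569-109011730) had folds of 11.4 and 5.98. Neither WT list had a peak anywhere in Syt1 or within 5 kb of it, while KO line 1 had 12 peaks there and KO line 2 had 4. Gained gene-end regions also lay at Ctla2b, Rassf8, Adgrl2 (a latrophilin), Orm1 (an acute-phase plasma protein), Mgst1 (a glutathione transferase), Ccl20 (a chemokine) and Gm6569. Of the 127 gained gene-end regions, 64 were at a start, 34 at the other end and 29 at genes whose strand was not given. Over all merged regions the counts were 9810, 1537 and 2904 of 14251. Of the 10 gained gene-end regions named here, 7 were called in all 4 KO lists and no WT list of D1, namely the 2 of Syt1 and those of St8sia4, Ctla2b, Orm1, Mgst1 and Ccl20.

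Several genes had peaks in 1 genotype only. Among 2899 genes with at least 3 regions shared by both KO lists, in the gene or within 5 kb, 5 had no peak in either WT list: Brinp2, Negr1, Slc16a7, Syt1 and Clnk. Negr1, a neuronal adhesion molecule, had 15 peaks in KO line 1 and 4 in KO line 2, and Brinp2 had 5 and 4. Among 4450 genes with at least 3 regions shared by both WT lists, 12 had no peak in either KO list, namely Ccdc88c, Clmn, Kcnab2, Vps13b, B3gnt7, Efr3b, Klhl29, Klhl40, Mdga1, Sh2d4b, Slc24a4 and Snph. The genes of both groups were picked out after the peaks were seen. Ccdc88c, Clmn, Efr3b, Klhl29 and Slc24a4 lie on chromosome 12, as does Dnmt3a, described below. That chromosome had the highest share of lost regions in the full lists (10.2%, against 5.33% of all merged regions). Its part in the losses at single genes was not tested.

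Ccdc88c had more lost regions than any other gene. It encodes DAPLE, a Dishevelled-binding protein of Wnt signalling, and spans chr12:100911519-101029351. WT replicate 1 had 12 peaks in or within 5 kb of it and WT replicate 2 had 15, and both KO lists had 0. Of its 15 regions, 12 were lost, and the one at chr12:101008087-101008502 had folds of 6.15 and 8.65. At D1 the 4 WT libraries had 16 to 19 peaks there and the 4 KO libraries 0 to 2, and at D5 the WT libraries had 7 to 13 and both of KO line 2 had 0. Outside the gene, the nearest regions called in both KO lists lay 186 kb away on the side of Rps6ka5 and 54.1 kb away on the side of Ppp4r3a, and both WT lists had peaks at these as well. Many lost regions also lay at Cdh13, which encodes T-cadherin, with 9 of 34 regions, and Msi2, an RNA-binding protein, with 8 of 39. Most gained regions were at Thbs1 (6 of 16), the matrix protein thrombospondin-1, then at Aff3 and Wwox with 5 each.

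**Figure D2:**
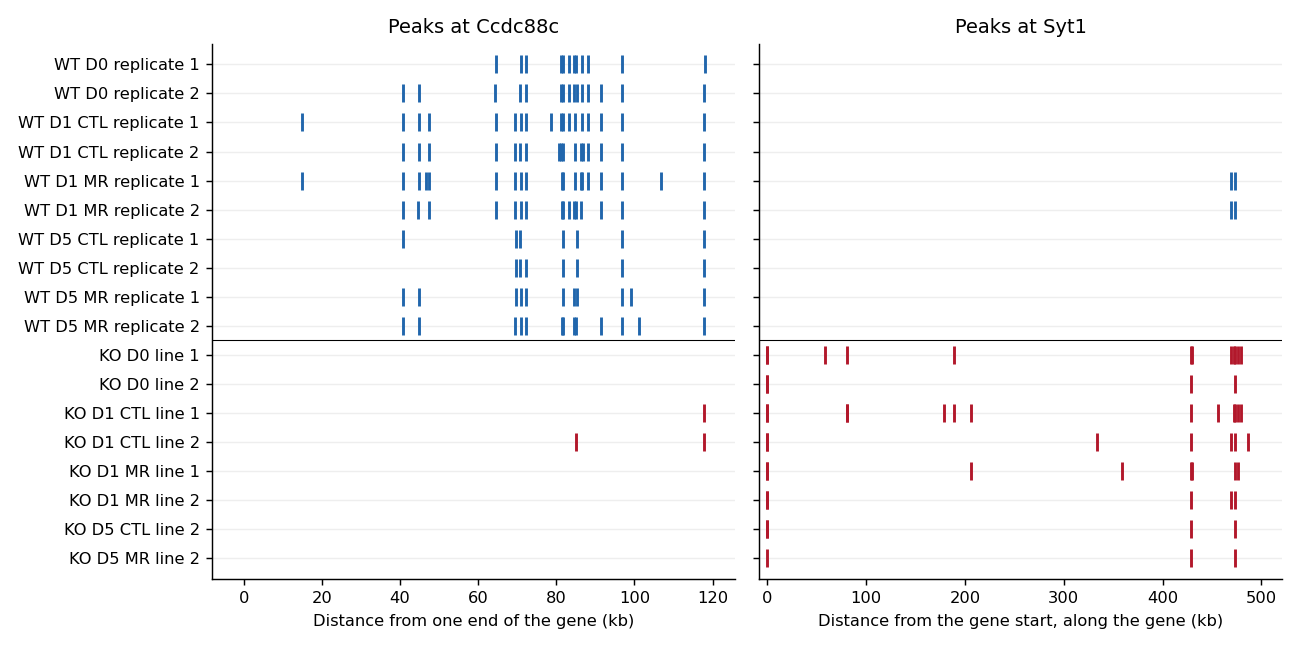
Peaks of each library (1 tick per peak, at its centre) in and within 5 kb of Ccdc88c and Syt1, with WT libraries above the line in blue and KO libraries below it in red. The x axes give the distance in kb along the gene, and the D5 lists of KO line 1, with 644 and 1881 peaks in all, are left out. Ccdc88c had 12 and 15 peaks in the WT D0 lists and 0 in both KO D0 lists, and Syt1 had 0 in both WT D0 lists and 12 and 4 in the KO ones.

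Lost regions lay at many genes of the contractile apparatus. Of all 21631 protein-coding genes, 9.83% had a lost region in the gene or within 5 kb, and 4.27% had a gained region. Of 36 sarcomere and contraction genes, 16 (44.4%) had at least 1 lost region, and 25 of the 144 regions at these genes (17.4%) were lost, against 5.33% of all merged regions. A single region at these genes was gained, and it lies at Myh1 and Myh2 alike. Without KO line 2, the shallow library, 16 of the 36 genes had a lost region (44.4%, against 11.3% of all genes) and 26 regions were lost (18.1%, against 6.34%). Gained regions, which then rest on KO line 1 alone, numbered 23 of 144 (15.97%, against 29.7% of all regions) at 15 genes. With the 20000 highest peaks per list, lost regions were at 4 of 36 genes (11.1%, against 5.77% of all genes). By region, 4 of 57 were lost (7.02%, near the 6.56% of all regions) and 2 were gained (3.51%, against 4.66%). Of the 25 lost regions, 1, in Ryr1, was among the 20000 highest peaks of both WT lists.

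The strongest of them was in Ryr1, which encodes the calcium release channel of the sarcoplasmic reticulum. That region, 1.30 kb inside the gene from its start (chr7:29123771-29123990), had folds of 9.32 in WT replicate 1 and 11.5 in WT replicate 2, with no peak in either KO list. Ttn had 2 lost regions at its start, and the one over the start (chr2:76982510-76982911) had folds of 4.52 and 4.56. Actc1, the cardiac actin that myoblasts express early in differentiation, had a lost region 4.85 kb from its start (chr2:114057622-114057826) with folds of 4.49 and 4.29. Acta1, the skeletal actin, had a weaker one (folds 2.87 and 3.68). For both actin genes the WT lists had 1 peak each and the KO lists had 0. Myh3, the embryonic myosin heavy chain, had 2 lost regions, and the one 3.19 kb inside the gene (chr11:67081319-67081609) had folds of 3.95 and 4.72. Mylpf, the fast regulatory light chain, lost a region with folds of 3.49 and 3.15. The others were Actn3, Myh7, Myl1, Tnni1, Myom1, Myom3, Ldb3, Xirp1, Mybph and Atp2a1. Xirp1, an actin-binding protein of muscle attachment sites, had 3 lost regions, and Actn3, Myom1, Mybph and Atp2a1 had 2 each.

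Further muscle genes followed. Mymx encodes the myomixer micropeptide needed for fusion, and its lost region at the gene end (chr17:45602008-45602256) had folds of 5.34 and 5.53 in the WT lists. Klhl40, whose product stabilises thin filament proteins, had 3 peaks in each WT list and 0 in each KO list, and the region over its start (chr9:121777356-121777882) had folds of 5.95 and 7.08. Among 20 fusion and adhesion genes, 7 had a lost region and 2 (Cdon and Kirrel) a gained region, and the share of regions lost, 9 of 156 or 5.77%, was close to the background. With the 20000 highest peaks per list that list stood higher, with 10 of 20 genes and 13 of 69 regions (18.8%, against 6.56%). Myoblast markers also had 4 of 12 genes with a lost region and none with a gained region. Their regions were lost at 5 of 80 (6.25%), near the 5.33% of all regions. The genes were Cdh15 (M-cadherin), Itga7 (the laminin receptor subunit of muscle), Megf10 and Chrna1 (an acetylcholine receptor subunit), and with the 20000 highest peaks 5 of 12 did, at 9 of 39 regions (23.1%, against 6.56%). The 18 myogenic regulators had lost regions at Eya2 and Eya4 only (4 of 104 regions, 3.85%, below the 5.33% of all regions) and a gained one at Pax3, so no region at Myod1, Myf5 or Myog was gained or lost. With the 20000 highest peaks the share stood above the background, with a lost region at 4 of these 18 genes (22.2%, against 5.77%) and 7 of 43 regions lost (16.3%, against 6.56%).

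Apobec2, a muscle-enriched deaminase family member outside these lists, was among the 12 strongest lost regions, with folds of 7.65 and 7.80 (chr17:48430506-48430745). Others among the 12 were in Lrrc20 (chr10:61536176-61536446, folds 11.1 and 11.5), Ryr1, Arid3a, Cbfa2t3, Slc24a4, Zfp407, Fam53a and Zc3h13, at the start of Zfp78, and 89.7 kb from Kctd15. At gene ends the strongest lost regions were those of Zfp78, Gm14410, Klhl40, Fgf23 (a phosphate-regulating hormone), Cd200, Oard1, Mdga1, Nppb, Lasp1 (an actin-binding LIM protein) and Epas1 (the hypoxia-inducible factor HIF-2 alpha). Of the 298 lost gene-end regions, 150 were at a start, 81 at the other end and 67 at genes whose strand was not given. Over all merged regions, 9810 of 14251 gene-end regions were at a start, 1537 at the other end and 2904 at genes without a given strand.

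Signalling lists were also touched by loss. Of 27 Wnt and Notch genes, 14 (51.9%, against 9.83% of all genes) had a lost region and 3 (11.1%, against 4.27%) a gained one. Of their 182 regions, 18 were lost (9.89%, against 5.33% of all regions) and 4 gained (2.20%, against 2.5%). The 14 were the ligand genes Wnt9a, Jag2 and Dll1, the receptor genes Fzd1, Lrp5, Lrp6, Notch1, Notch2 and Notch3, and the nuclear factors Tcf7, Tcf7l1, Tcf7l2, Lef1 and Rbpj. Dll1, a Notch ligand, had the highest WT replicate 1 fold among them, 5.52, and its fold in WT replicate 2 was 4.80. Notch2 had 3 lost regions and 1 gained one, the latter with a fold of 6.78 in KO line 1. The Tead and Yap axis had a lost region at 7 of 16 genes (43.75%, against 9.83% of all genes) and a gained one at none. Of its 116 regions, 10 (8.62%, against 5.33% of all regions) were lost. Tead1, a DNA-binding partner of Yap, accounted for 4 of these, of which the strongest (chr7:112885603-112885782) had folds of 5.61 and 6.16. The other 6 were at Tead2, Wwtr1 (Taz), Vgll4, Ccn1, Ccn2 and Lats1. With the 20000 highest peaks Wnt and Notch genes had a lost region at 7 of 27 (25.9%, against 5.77% of all genes), with 9 of 75 regions lost (12%, against 6.56%). Tead and Yap genes then had a lost region at 3 of 16 (18.75%, against 5.77%) and a gained one at 3 of 16 (18.75%, against 4.38%). Of their 53 regions, 3 were lost (5.66%), below the background.

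Cell cycle genes had lost regions at 3 of 28 members (10.7%, against 9.83% of all genes) and at 6 of 109 regions (5.50%, against 5.33%), which is the background share. Of the 6 regions, 4 were within Ccnd3, which encodes the D-type cyclin that rises as myoblasts differentiate. The strongest (chr17:47521666-47522170) had folds of 5.74 and 7.57 in the WT lists. Each WT list had 10 peaks at Ccnd3, KO line 1 had 6 and KO line 2 had 5. Among 24 genes listed as enzymes and readers of H3K36 methylation, 4 had a lost region, and 6 of 100 regions (6.0%) were lost, near the background. A lost region was at 1 of 24 genes (4.17%, against 5.77%) with the 20000 highest peaks. Of the 6 regions, 3 were within Dnmt3a, a DNA methyltransferase whose PWWP domain reads H3K36 methylation. WT replicates 1 and 2 had 4 and 7 peaks at Dnmt3a, KO line 1 had 0 and KO line 2 had 1. Its strongest lost region (chr12:3858833-3859028) had folds of 5.79 and 6.70. Setd3, Nsd3 and Kdm4b of this list had 1 lost region each. Ash1l, an H3K36 methyltransferase, had its only gained one, with folds of 5.54 and 4.36.

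Gained regions were spread over other lists. Neuronal markers had 7 of 102 regions gained (6.86%, against 2.5% of all regions), at 4 of 14 genes, and 4 of the 7 were those of Syt1. Dlg2, a synaptic scaffold gene, and Cntnap2, a neuronal adhesion gene, had 1 gained region each. Another 4 of the 14 genes (Rbfox1, Nrxn3, Gria1 and Map2) had lost regions, 6 of 102 in all (5.88%, near the 5.33% of all regions). The median length of the neuronal marker genes was 425 kb. With the 20000 highest peaks per list, 4 of their 43 regions were gained (9.30%, against 4.66%) and 4 were lost (9.30%, against 6.56%). Matrix and integrin genes had gained regions at 10 of 43 and lost ones at 13 of 43. By region the shares were near the background, with 11 of 334 gained (3.29%) and 21 of 334 lost (6.29%). Col11a1, a fibrillar collagen, had a gained region over its start (chr3:114030381-114030512, folds 5.83 and 4.01) and another inside (folds 8.64 and 4.64), and no WT D0 peak at all. Fbn1, Col15a1, Col6a3 and Itgb8 had gained regions within the gene, while Lama5 had 4 lost regions and Lama2 had 3. Osteogenic and chondrogenic genes had 4 of 58 regions gained (6.90%, against 2.5%), but 1 of 23 (4.35%, against 4.66%) with the 20000 highest peaks per list. Zeb2, placed here in the list of myogenic repressors, had 1 lost region and 2 gained ones. Of the gained ones, 1 lay over its start (chr2:45117157-45117560, folds 4.13 and 3.46). Id4 and Id1 had 1 gained region each, while Hes1, Heyl, Snai2 and Zeb1 of the same list had 1 lost region each. For the other lists the shares to compare with are 2.5% gained and 5.33% lost over all merged regions. The AP-1 family had 1 gained and 0 lost of 54 regions, and the TGF-beta and BMP list 7 and 7 of 203. The Runx family had 1 and 1 of 86, growth factor genes 4 and 8 of 203, and the p53 response list 0 and 2 of 60. Myogenic repressors had 4 gained and 5 lost of 86, neuromuscular junction genes 0 and 3 of 54, adipogenic genes 0 and 3 of 78, smooth muscle markers 0 and 4 of 49, fibroblast markers 2 and 1 of 48, and macrophage and immune markers 1 and 2 of 17. Endothelial markers had 0 of 13 in either direction.

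**Figure D3:**
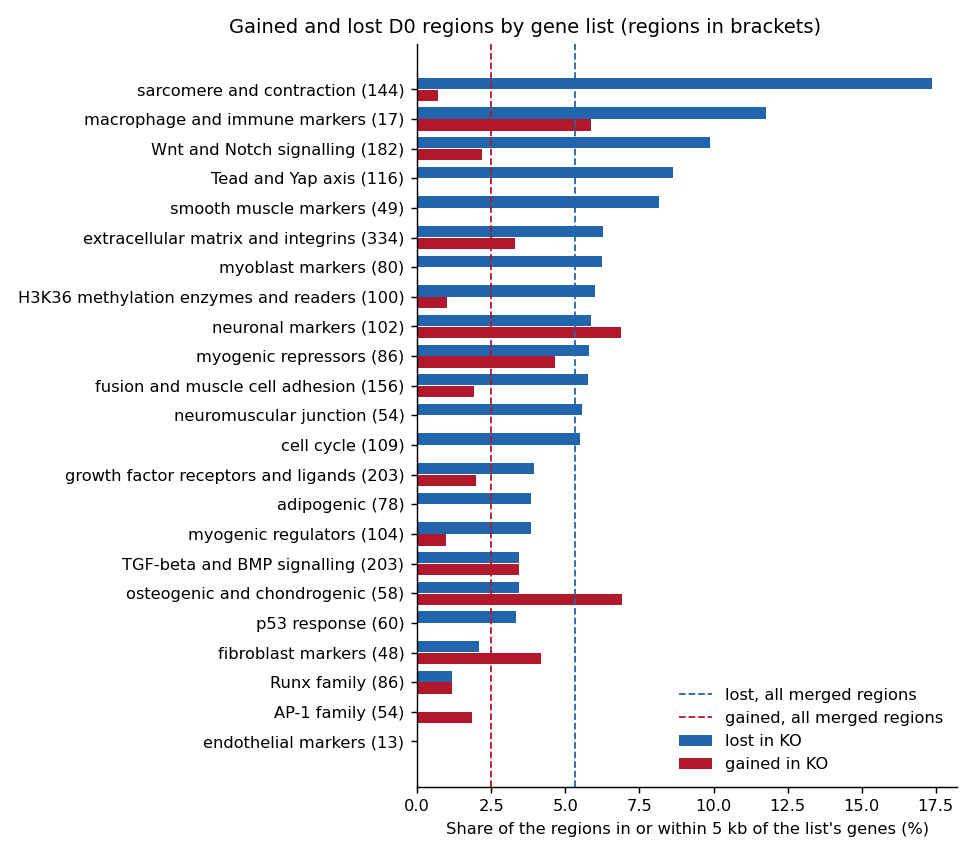
Percent of the D0 regions in or within 5 kb of each list's genes that were lost (blue) or gained (red) in KO, with the number of regions in brackets and the share over all merged regions as dashed lines. Sarcomere and contraction genes had 17.4% lost against 5.33% of all regions, and neuronal markers 6.86% gained against 2.5%.

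Genes that hold such regions were long. The median length was 72.9 kb for genes with a gained region and 56.8 kb for those with a lost one, against 23.8 kb for genes with any merged region. The listed genes had a median of 35.1 kb and all protein-coding genes 17.3 kb, so the shares of regions are given beside the shares of genes. Altogether 923 genes had a gained region, 2126 a lost one and 171 had both.

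The D0 differences were then followed in libraries that did not enter their definition. These come from the same WT cells and the same KO lines, so they show whether the lines kept a difference and add no further lines. At D1 the gained regions had a peak in 79.9% and 80.7% of cases in KO lines 1 and 2 under CTL and in 67.1% and 62.3% under MR. The 4 WT libraries of D1 had 18.7% and 8.17% under CTL and 40.3% and 27.3% under MR, so the genotypes did not overlap. Lost regions had a peak in 77.8% to 91.4% of cases in WT libraries of D1 and in 11.8% to 35.4% in KO libraries. Over the 4 libraries a genotype, the mean difference of KO minus WT was 48.9 percentage points for gained and -61.2 for lost regions, against -5.51 for all merged regions. Among regions of both definitions it was 72.5 points for the 199 gained and -60.7 for the 356 lost ones.

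Single regions kept their state to different degrees. Of 1835 gained regions, 366 (19.9%) were called in all 4 KO lists and no WT list of D1, a pattern shown by 1.001% of all merged regions. Of 3909 lost regions, 1003 (25.7%) had the reverse pattern, shown by 2.64% of all merged regions. For 976 gained regions (53.2%) no WT library of D1 had a peak, and for 1780 lost regions (45.5%) no KO library of D1 had a peak. The shares of all merged regions without such peaks are not given here, so these 2 counts have no background to be read against. At D5 the lists of KO line 1 held too few peaks to use. Adding the 4 WT lists and both lists of KO line 2 at D5 left 194 gained regions (10.6%) present in every KO list and no WT list, against 0.406% of all merged regions. Of the 194, 33.0% were over 100 kb from a gene. The same criterion left 101 lost regions (2.58%, against 0.213% of all merged regions for the reverse pattern), among them regions within Syne2, Cdh13, Ccdc88c and Ccnd3.

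**Figure D4:**
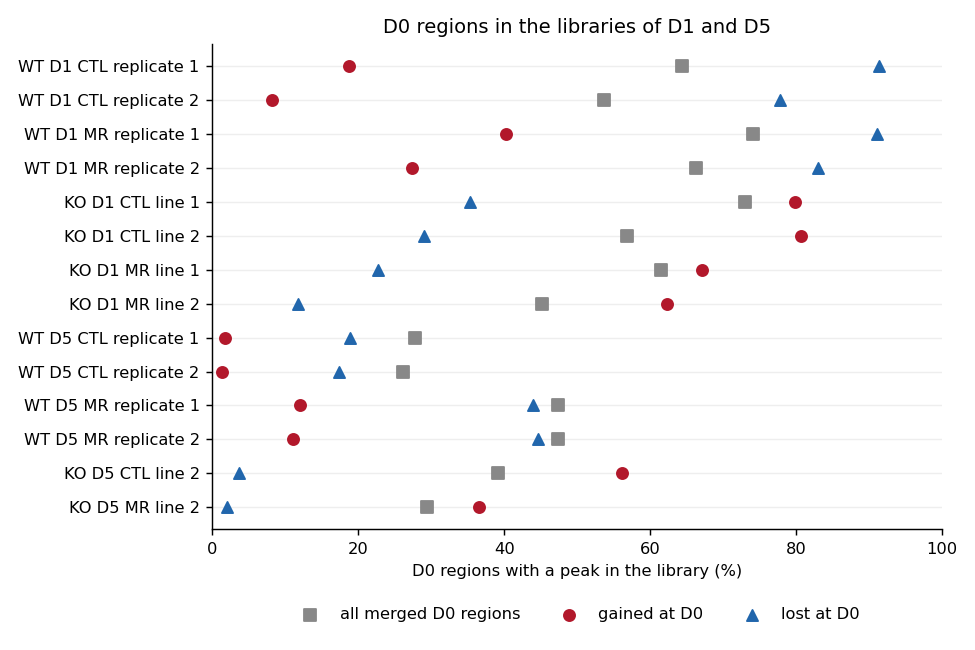
Percent of all merged, gained and lost D0 regions with a peak in each library of D1 and D5, without the D5 lists of KO line 1. In the D1 libraries gained regions reached 8.17% to 40.3% in WT and 62.3% to 80.7% in KO, and lost regions 77.8% to 91.4% in WT and 11.8% to 35.4% in KO.

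Some lost regions had a peak in KO cells a day later. All 4 KO lists of D1 had a peak at 111 of the 3909 lost regions (2.84%). The share of all merged regions with a peak in all 4 KO lists of D1 is not given here. KO line 2 had 30629 peaks at D0 and 46664 at D1 under CTL, and KO line 1 had 63530 and 61045. The part of list size in these calls was not tested. The highest ranked of these was the Ryr1 region, which was also present in both D5 lists of KO line 2, and the Klhl40 start region was another. Of the 25 lost sarcomere regions, 21 were present in all 4 WT libraries of D1, 10 were in no KO library of D1, and 2 (in Ryr1 and Ldb3) were in all 4 KO ones. Of all 3909 lost regions, 68.7% were in all 4 WT libraries of D1, 45.5% in no KO library and 2.84% in all 4 KO libraries. The regions in Myh3 and Mylpf named above were in 4 of 4 WT and 0 of 4 KO libraries at D1, and in 4 of 4 WT and 0 of 2 KO line 2 libraries at D5. All 5 lost regions at myoblast markers were in 4 of 4 WT libraries of D1, and in 1 or 2 KO ones. Whether lost regions with a KO peak at D1 differ in kind from the others was not tested.

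Losses and gains were uneven along the genome. In the full lists, chromosome 12 had the highest share of lost regions, 262 of 2568 or 10.2%, followed by chromosome 10 with 6.72% and chromosome 17 with 6.53%. With the 20000 highest peaks per list, chromosome 10 (9.94%) and chromosome 12 (9.69%) were nearly level. On chromosome 12, 20.6% of the regions shared by both WT lists lacked a peak in KO line 1, against 11.9% over all chromosomes, and 37.5% lacked 1 in KO line 2, against 34.9%. Chromosome 17 rested more on KO line 2, with 44.7% absent there and 12.7% absent from KO line 1. Gained regions of the full lists were most frequent on chromosomes 3 (4.03%), 16 (3.75%) and 15 (3.59%) and least on 17 (1.30%) and 9 (1.40%). Among the 20000 highest peaks, chromosome 3 (6.33%) again had the largest share and chromosome 17 (2.33%) the smallest, while chromosome 16 (4.48%) fell below the 4.66% of all regions. Over 1 Mb windows with at least 10 regions shared by both WT lists, the median share lost was 8.70%, and 16 of 1279 windows had at least 40% lost. Highest were 69 to 70 Mb of chromosome 13 with 7 of 10 and 72 to 73 Mb of chromosome 15 with 8 of 12. The window at 99 to 100 Mb of chromosome 12, which holds Foxn3, had 11 of 20 lost, and the adjacent windows at 76 to 78 Mb of chromosome 2, where Ttn lies, had 6 of 13 and 9 of 17 lost. Among 1081 windows with at least 10 regions shared by both KO lists, 12 had at least 40% gained, led by 134 to 135 Mb of chromosome 2 with 8 of 10, near Hao1, and 60 to 61 Mb of chromosome 15 with 9 of 12. DNA copy number in these lines was not measured here, and its part in such clusters was not tested.

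**Figure D5:**
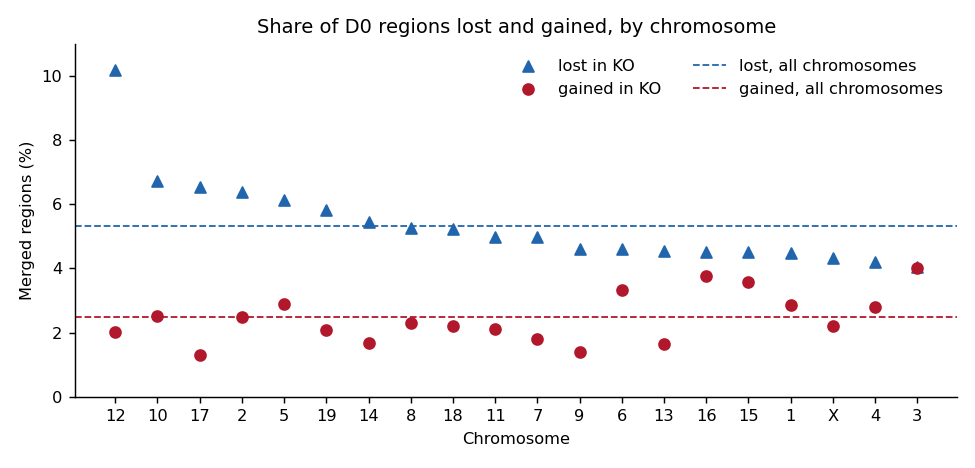
Percent of the merged D0 regions of each chromosome that were lost (blue triangles) or gained (red circles) in KO, ordered by the share lost, with the shares over all chromosomes dashed. In the full lists, chromosome 12 stands highest for loss at 10.2%, and chromosome 3 highest for gain at 4.03%.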

How the data were processed

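ATAC-seq peak lists of 20 libraries of C2C12 cells were used, 1 per library. Tagmentation used an Active Motif kit and sequencing was paired-end on a NovaSeq, per the labels' protocols. The build is GRCm38 per the submitters' processing notes. The aligner, the filters, the treatment of duplicates and of transposase offsets, and the peak caller are not given in the sources used here. Peaks were called per library, and each deposited list gives for every peak the authors' fold enrichment (a ratio), its -log10 p-value and the matching -log10 q-value. These values were used only within their list. The lists hold no read totals, so background coverage was solved from the fold and -log10 p-value found most often together, under an assumed Poisson model, and depth is known only through it. The peak number of a list moves with depth, so absence of a peak in KO line 2 is weaker evidence than in the other libraries.

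Computations used Python 3.11.15 with numpy 2.4.6, pandas 2.3.3 and scipy 1.17.1. Peaks sharing at least 1 bp were merged. Each region was placed on 21631 protein-coding genes of RefSeq (GRCm38.p6), of which 17274 have a single strand in the promoter table: at a gene end (within 1 kb of either end), in a gene body, or outside. The functions were tested on simulated lists. List features were compared by exact two-sided permutation tests. Genes were named by rule: the gene a region overlaps or the nearest within 100 kb (the nearest is given with its distance where farther); the 12 gained and 12 lost regions highest by the lower of their group's percentiles of -log10 p; the 10 highest at gene ends; the 5 genes with most regions; and listed genes (23 lists, 409 genes, all matched) with a gained or lost region in the gene or within 5 kb. The members, lists and rules were chosen with earlier results of these data known. Alternatives were the 20000 highest peaks per list, regions of both definitions, a -log10 q of at least 2, 50% coverage of a region, gene ends within 2 kb, and leaving out each library. Counts without KO line 2 by list, the 1 Mb windows, the genes with peaks in 1 genotype and the motif search were added after seeing the data. Some genes that the rule names are not reported here.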

Additional observations from a re-analysis of the deposited data

How the results depend on the processing

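The calls depended on the number of peaks used. Gained regions numbered 1835, and 199 when they had to be among the 20000 highest peaks of both KO lists and absent from the full WT lists; lost regions numbered 3909, with 1964 among the 20000 highest peaks and 356 under the stricter rule. Leaving out 1 library gave 2090 to 21804 gained and 4650 to 13922 lost regions, the extremes being 21804 gained without KO line 2 and 13922 lost without KO line 1, where a single KO list decides. Without WT replicate 2, 3164 regions were gained, and without WT replicate 1, 7309 were lost. A -log10 q of at least 2 gave 1669 gained and 3871 lost, and 50% coverage 1787 and 4418. The KO minus WT difference at D1 kept its sign under every alternative run, from 14.8 to 72.5 points for gained and from -60.7 to -29.6 for lost regions.

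The difference in log2 peak number, -0.06, ran from -0.59 to 0.46 when 1 library was left out and turned positive without KO line 2 (0.46) and without WT replicate 2 (0.03). The difference in gene-end share, -1.17 points, was 0.47 with the 20000 highest peaks, and -3.29 to 0.96 with 1 library left out. The difference in median width, -3.5 bp, was 8.25 bp with the 20000 highest peaks, and -18 to 11 bp with 1 library left out. The gene-body difference stayed negative in all of them, but with the 20000 highest peaks the shares of the groups overlapped. None of these had passed a test, and the cause was not tested. No paired analysis was possible because the KO libraries are both numbered replicate 1, of different lines, and share fewer than 2 numbers with the WT replicates.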
